A study of Mus musculus with 8 samples.

Results

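The inflammasome components described here are 9 genes: the sensors Nlrp3, Nlrp1b and Nlrc4, the ligand receptors Naip2 and Naip5, the adaptor Pycard (ASC), the proteases Casp1 and Casp4, and the pore-forming protein Gsdmd. They were chosen by name, as rows of the count tables whose Ensembl gene IDs carry these symbols, and make up 9 of 55487 genes in each table. All 9 passed the filter on low counts, which left 20631 genes to test. The data are RNA-seq libraries of conventional dendritic cells (cDC), sorted from the spleens of untreated C57BL/6 mice in 2 subsets, cDC1 and cDC2. The 8 libraries form 4 groups of 2. Wild-type (WT) animals gave a cDC1 and a cDC2 group. The third group holds cDC1 carrying the allele Zeb2 -165(d1+2+3), and the fourth holds cDC2 that are Irf8 +32-/-. The genotypes name enhancers, which are non-coding regulatory elements, of Zeb2 and of Irf8, and each mutant was profiled in 1 subset only. The libraries carry the replicate numbers 2 and 3 in every group. No label says that they came from separate animals, so the p-values below measure only the spread between these samples, which may be technical.

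An inflammasome is a protein complex that assembles in the cytosol when a sensor detects a microbial product or cell damage. Nlrp3 responds to potassium loss and membrane injury after a priming signal has raised its level, Nlrp1b is activated when microbial enzymes cleave it, and Naip2 and Naip5 bind bacterial secretion-system parts and flagellin and then recruit Nlrc4. Sensors recruit caspase-1 directly or through ASC. Caspase-1 matures interleukin-1β and interleukin-18 and cleaves gasdermin D, which opens pores in the membrane. The mouse Casp4 gene encodes caspase-11, which senses lipopolysaccharide in the cytosol and cleaves gasdermin D as well. In dendritic cells these proteins bear on the release of cytokines and on cell survival after infection. Transcript levels, the only readout here, measure neither the amounts of these proteins nor the activity of the complex.

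The sequences just upstream of the members whose transcripts differed most between the subsets are shown first, because these genes moved together in 1 direction, with Nlrp1b in the other. They come from RefSeq promoter windows (build GRCm38.p6, 250 bases before the start, printed without bases that the count tables assign to the gene), which held 8 of the 9 members in 11 windows. Capitals mark letters that match an NF-kappaB pattern (Nlrp3, Casp4) or the PU.1 pattern GAGGAAGT (Nlrp1b) on either strand, and the overlapping NF-kappaB matches in Casp4 run together. Nlrp3 lies at chr11:59541319-59541567 on the plus strand, Nlrp1b at chr11:71230734-71230983 on the minus strand, Nlrc4 at chr17:74459143-74459358 on the minus strand, Casp1 at chr9:5298267-5298507 on the plus strand and Casp4 at chr9:5308599-5308827 on the plus strand.
Nlrp3: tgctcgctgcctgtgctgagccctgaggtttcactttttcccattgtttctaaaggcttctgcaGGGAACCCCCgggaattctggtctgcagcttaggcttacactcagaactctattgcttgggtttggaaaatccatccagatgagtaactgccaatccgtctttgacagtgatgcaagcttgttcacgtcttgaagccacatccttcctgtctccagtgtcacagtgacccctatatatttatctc
Nlrc4: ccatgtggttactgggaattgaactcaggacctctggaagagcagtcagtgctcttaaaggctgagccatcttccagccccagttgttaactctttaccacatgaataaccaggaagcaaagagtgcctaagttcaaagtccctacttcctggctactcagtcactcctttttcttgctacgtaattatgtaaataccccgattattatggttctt
Casp1: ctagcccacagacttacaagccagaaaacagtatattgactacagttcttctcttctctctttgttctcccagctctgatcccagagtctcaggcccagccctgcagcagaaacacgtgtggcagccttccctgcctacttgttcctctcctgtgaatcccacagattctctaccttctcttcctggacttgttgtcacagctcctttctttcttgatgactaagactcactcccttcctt
Casp4: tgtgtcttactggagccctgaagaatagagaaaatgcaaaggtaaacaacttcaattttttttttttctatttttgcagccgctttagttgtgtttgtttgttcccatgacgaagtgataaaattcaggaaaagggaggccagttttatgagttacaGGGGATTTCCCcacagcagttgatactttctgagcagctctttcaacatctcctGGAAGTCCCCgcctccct
Nlrp1b: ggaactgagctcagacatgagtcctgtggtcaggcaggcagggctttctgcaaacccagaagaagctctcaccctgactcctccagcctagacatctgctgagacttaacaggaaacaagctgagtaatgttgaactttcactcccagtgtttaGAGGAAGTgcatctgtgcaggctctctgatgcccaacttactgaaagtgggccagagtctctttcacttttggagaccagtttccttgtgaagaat

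In all, 13 patterns were searched on both strands. The 4 listed with the design were the core of the interferon-stimulated response element (GAAA, 2 free bases, GAAA, in 2.98% of 32851 windows of the same length), the Ets-IRF composite (GGAA, 2 free bases, GAAA, 2.3%), TGANTCA (AP-1, 6.75%) and CACCTG (an E-box that Zeb factors bind, 17.2%). They matched 0 of the 11 member windows. A further 9 were tried after the member sequences had been seen, and the 2 in capitals were picked after their matches were known, so that their occurrence in members is a description only. The NF-kappaB pattern was in 7.25% of all windows and in 4 member windows of 3 genes (Nlrp3, Naip5 and both windows of Casp4), and GAGGAAGT was in 2.44% of all windows and in those of Nlrp1b and Pycard. The other 7 were TTCNNNGAA (GAS, in 0 member windows), GAGGAA (4, overlapping GAGGAAGT), TGTGGT (RUNX, 3), C/EBP by name (1), GGGCGG (Sp1, 0), TATAAA (1) and a pair of GAAA with a short gap (2, a looser form of the response element). The shares of all windows for these 7 were 7.02%, 23.3%, 14.0%, 3.39%, 32.7%, 12.4% and 11.7% in the same order.

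Naip2 and Naip5 are shown as a pair because they are related genes of 1 cluster with similar upstream sequence. Over 100 bases upstream of their RefSeq starts (Naip2 at chr13:100202123-100202222 and Naip5 at chr13:100247344-100247443, both on the minus strand), 78 bases are identical without gaps and the 22 in capitals differ, and the longest identical run of the windows is 34 bases.
Naip2: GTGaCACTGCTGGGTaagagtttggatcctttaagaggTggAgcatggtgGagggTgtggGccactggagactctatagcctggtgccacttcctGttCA
Naip5: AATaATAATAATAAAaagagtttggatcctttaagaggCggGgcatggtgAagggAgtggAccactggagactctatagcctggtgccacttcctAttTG

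Library totals ran from 49380686 to 58611821 counts, and member counts from 37 (Nlrc4, replicate 3 of Zeb2 mutant cDC1) to 14685 (Nlrp3, replicate 3 of WT cDC2). The subset labels matched their markers, summed as TMM-normalised CPM (read counts over library size, scaled between libraries by the trimmed mean of M-values). The sum of 8 cDC1 markers was 7562 to 10520 in cDC1 libraries and 1739 to 1983 in cDC2 libraries. That of 9 cDC2 markers was 32.9 to 50.6 in cDC1 and 2162 to 2372 in cDC2. Most of the cDC1 marker sum in cDC2 libraries was Wdfy4, at 1683 CPM (WT) and 1624 CPM (Irf8 mutant) on average. In WT cDC1, Wdfy4 was at 3183 ± 1510 CPM (SD, n = 2). Irf8 itself was at 3452 ± 267 CPM (SD, n = 2) in WT cDC1 and 3574 ± 191 in Zeb2 mutant cDC1, and at 115 ± 15.9 in WT cDC2 and 133 ± 18.9 in Irf8 mutant cDC2. Zeb2 was at 2.10 ± 0.00934 CPM in WT cDC1, 2.89 ± 0.922 in Zeb2 mutant cDC1, 200.4 ± 0.177 in WT cDC2 and 185 ± 17.9 in Irf8 mutant cDC2. The 2 WT cDC1 libraries stood apart from each other: the SD of their log2 difference was 0.423 over 8399 genes, against 0.232 to 0.325 in the other groups, and that difference followed exon length with a Spearman's rho of -0.391 across genes (other groups 0 to 0.241). Results that rest on WT cDC1 are therefore also given without each of its libraries.

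In WT mice, 4 of the 9 components were lower in cDC1 than in cDC2: Nlrc4 by 11.7-fold, Nlrp3 by 4.32-fold, Casp1 by 2.25-fold and Casp4 by 2.23-fold. Nlrp1b was higher in cDC1, by 2.01-fold. Naip2, Naip5, Pycard and Gsdmd did not pass edgeR's quasi-likelihood test at an adjusted p of 0.05. Of all genes tested, 30.1% passed in this comparison, 14.2% higher and 15.9% lower in cDC1, so that 5 of 9 exceeds the background share without a test of the list. The background moves with the libraries: 2932 genes were higher and 3287 lower with all 8, 1625 and 2175 without replicate 2 of WT cDC2, and 1750 and 2198 without its replicate 3, where 4 of 9 components passed each time. In all 9 genes both libraries of 1 subset lay above both of the other, 7 lower and 2 higher in cDC1. That pattern was met by 65% of all genes (32.8% higher, 32.1% lower), so it is common with groups of 2. The members' median log2 fold change was -0.73, against 0.03 over all tested genes. In bulk libraries, fewer cells of a type and less RNA per cell cannot be told apart, and this holds for each difference below.

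**Figure D1:**
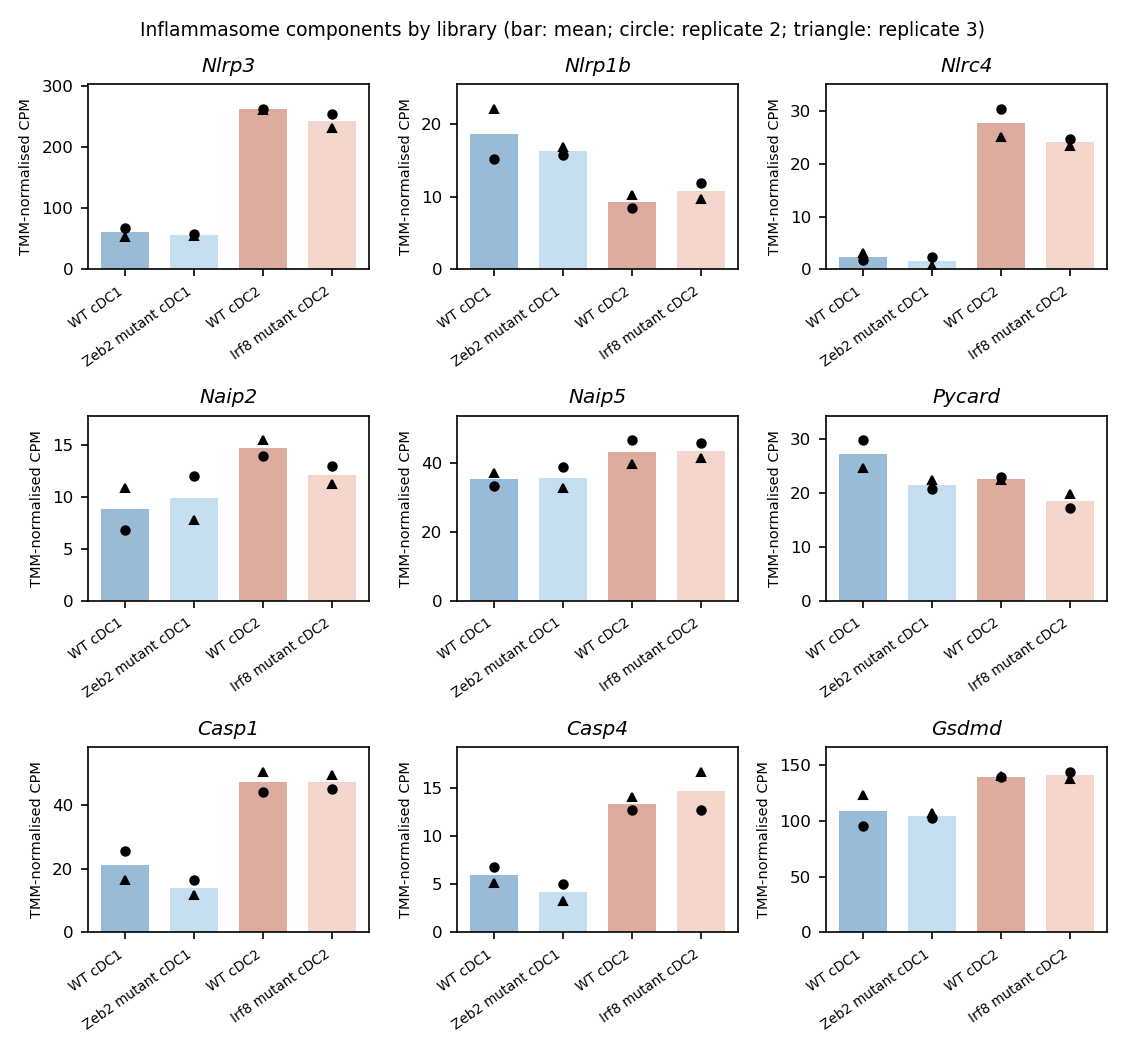
TMM-normalised CPM (vertical axis, from 0) of the 9 components in the 4 groups; bars are means of 2 libraries, circles replicate 2 and triangles replicate 3. Nlrp3, Nlrc4, Casp1 and Casp4 stand higher in every cDC2 library than in any cDC1 library, and Nlrp1b stands lower.

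Among the sensors, Nlrp3 (ENSMUSG00000032691, chromosome 11, 59541568 to 59566956, GRCm38) was at 68.0 and 53.15 CPM in the replicate 2 and 3 libraries of WT cDC1 and at 263 and 261 CPM in those of WT cDC2. Both cDC2 libraries lay far above both cDC1 libraries, and the cDC2 pair differed by less than the cDC1 pair. The log2 fold change was -2.11 ± 0.146 (SE; edgeR adjusted p = 2.72e-06). Without replicate 2 of WT cDC1 it was -2.30, and without replicate 3 it was -1.95 (edgeR adjusted p = 1.17e-06 and 2.38e-06).

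Nlrc4 (ENSMUSG00000039193, chromosome 17, 74425438 to 74459142), which forms an inflammasome only after a NAIP protein has bound its ligand, showed the widest gap. It was at 1.71 and 3.03 CPM in WT cDC1, from 99 and 177 counts, and at 30.4 and 25.0 CPM in WT cDC2, from 1672 and 1408 counts. No cDC1 library came near the cDC2 range. The log2 fold change was -3.55 ± 0.465 (edgeR adjusted p = 0.000253), and it was -3.19 or -4.02 without replicate 2 or replicate 3 of WT cDC1.

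Nlrp1b (ENSMUSG00000070390, chromosome 11, 71153102 to 71230733) went the other way. It was at 15.2 and 22.1 CPM in WT cDC1 and at 8.42 and 10.2 CPM in WT cDC2, so both cDC1 libraries were higher. The log2 fold change was 1.003 ± 0.228 (edgeR adjusted p = 0.00732), and it was 1.25 or 0.71 without replicate 2 or replicate 3 of WT cDC1 (edgeR adjusted p = 0.00225 and 0.0398). Without replicate 2 of WT cDC2 the call was lost, at 0.87 on the log2 scale (edgeR adjusted p = 0.0783).

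Neither ligand receptor passed the test. Naip5 (ENSMUSG00000071203, chromosome 13, 100211739 to 100246323) was at 33.4 and 37.2 CPM in WT cDC1 and 46.6 and 39.8 CPM in WT cDC2, and differed by -0.29 on the log2 scale (95% interval -0.63 to 0.05; edgeR adjusted p = 0.188). Naip2 (ENSMUSG00000078945, chromosome 13, 100144063 to 100202092) was at 6.81 and 10.9 CPM in WT cDC1 and 14.0 and 15.5 CPM in WT cDC2. Its log2 fold change of -0.73 (95% interval -1.35 to -0.11) did not pass over all genes (edgeR adjusted p = 0.0738). It passed without replicate 3 of WT cDC1, at -1.11 (edgeR adjusted p = 0.0167), and with DESeq2 (adjusted p = 0.0226). These genes lie 9646 bases apart on the same strand. In the GENCODE M21 transcripts, 8.25% of the 150-base words of Naip5 also occur in another gene, most of them in Naip3 (5.84%), and 0.537% of those of Naip2, so their counts are uncertain to the extent that such reads were split.

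The adaptor Pycard (ENSMUSG00000030793, chromosome 7, 127989708 to 127993867) was at 29.8 and 24.6 CPM in WT cDC1 and at 22.9 and 22.4 CPM in WT cDC2. The cDC1 libraries were the higher ones, by 0.26 on the log2 scale (95% interval -0.09 to 0.62; edgeR adjusted p = 0.256). An antisense gene, Gm45205, overlaps 12.8% of its exon bases on the other strand, and the library kit does not mark strand, so reads from the 2 cannot be told apart there.

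The 2 proteases changed alike. Casp1 (ENSMUSG00000025888, chromosome 9, 5298508 to 5307290) was at 25.7 and 16.5 CPM in WT cDC1 and at 44.3 and 50.7 CPM in WT cDC2, with both cDC2 libraries higher. The log2 fold change was -1.17 ± 0.228 (edgeR adjusted p = 0.00303), and it was -1.52 or -0.89 without replicate 2 or replicate 3 of WT cDC1. Casp4 (ENSMUSG00000033538, chromosome 9, 5308828 to 5336783) starts 1537 bases beyond the end of Casp1 on the same strand. It was at 6.86 and 5.17 CPM in WT cDC1 and at 12.8 and 14.1 CPM in WT cDC2, again with no overlap. Its log2 fold change was -1.16 ± 0.269 (edgeR adjusted p = 0.00821), -1.38 or -0.97 without replicate 2 or replicate 3 of WT cDC1 (edgeR adjusted p = 0.011 and 0.039). Without replicate 3 of WT cDC2 the call was lost (log2 fold change -1.07, edgeR adjusted p = 0.0585).

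Gsdmd (ENSMUSG00000022575, chromosome 15, 75862327 to 75867408), the substrate of both proteases, was at 95.1 and 123 CPM in WT cDC1 and at 139.4 and 140.0 CPM in WT cDC2. The cDC1 pair was spread widely and lay below the tight cDC2 pair. The log2 fold change was -0.36 (95% interval -0.67 to -0.04; edgeR adjusted p = 0.0851). Without replicate 3 of WT cDC1 it was -0.56 and passed (edgeR adjusted p = 0.00445), and without replicate 2 it was -0.18 (edgeR adjusted p = 0.309).

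The mutant libraries give a second set of 4 libraries, Zeb2 mutant cDC1 and Irf8 mutant cDC2, that do not enter the WT values. Cell type and genotype differ together in it and cannot be told apart, and both comparisons use the spread estimated over all 8 libraries. Here 5 of the 9 components were lower in cDC1 and 0 higher, where 27.9% of all genes passed (12.8% higher, 15% lower). Over all genes, 2646 were higher and 3104 lower, against 1731 and 2122 without replicate 2 of Zeb2 mutant cDC1 and 1664 and 2192 without its replicate 3. Nlrp3, Nlrc4, Casp1, Casp4 and Gsdmd were the 5. The groups did not overlap in 8 of 9 genes, 6 lower and 2 higher, against 65.8% of all genes, and Naip2 overlapped. The members' median log2 fold change was -0.43, against -0.02 over all tested genes.

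Nlrp3 was at 57.9 and 54.8 CPM in Zeb2 mutant cDC1 and at 254 and 231 CPM in Irf8 mutant cDC2. Its 4.31-fold lower level (log2 fold change -2.11 ± 0.146, edgeR adjusted p = 2.76e-06) stood beside a 4.32-fold lower level in WT mice. Nlrc4 was at 2.37 and 0.682 CPM in Zeb2 mutant cDC1, from 138 and 37 counts, and at 24.75 and 23.4 CPM in Irf8 mutant cDC2. It was 15.7-fold lower (log2 fold change -3.97 ± 0.48, edgeR adjusted p = 0.000148). That size rests on the cDC1 libraries: the log2 fold change was -5.14 without replicate 2 of Zeb2 mutant cDC1 and -3.34 without replicate 3.

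Casp1 was at 16.4 and 11.7 CPM in Zeb2 mutant cDC1 and at 45.2 and 49.6 CPM in Irf8 mutant cDC2, 3.38-fold lower (log2 fold change -1.76 ± 0.232, edgeR adjusted p = 0.000256). Casp4 was at 5.04 and 3.30 CPM against 12.7 and 16.7 CPM, 3.53-fold lower (log2 fold change -1.82 ± 0.275, edgeR adjusted p = 0.000631). Both proteases were lower in each cDC1 library than in any cDC2 library. Gsdmd was at 102 and 107 CPM against 144 and 138 CPM, 1.35-fold lower, and passed narrowly (log2 fold change -0.43 ± 0.141, edgeR adjusted p = 0.0446). Leaving out any 1 library other than those of WT cDC1 ended that call (edgeR adjusted p = 0.0831 to 0.206), and so did the fit with no filter on low counts (edgeR adjusted p = 0.0672).

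Nlrp1b was at 15.8 and 16.9 CPM in Zeb2 mutant cDC1 and at 11.8 and 9.69 CPM in Irf8 mutant cDC2. Both cDC1 libraries were higher, but the log2 fold change of 0.60 (95% interval 0.10 to 1.11) did not pass (edgeR adjusted p = 0.0756); it passed without replicate 2 or replicate 3 of WT cDC1 (edgeR adjusted p = 0.0342 and 0.0378). Naip2 was at 12.04 and 7.78 CPM against 12.9 and 11.3 CPM, Naip5 at 38.7 and 32.9 CPM against 45.8 and 41.3 CPM, and Pycard at 20.7 and 22.4 CPM against 17.3 and 19.8 CPM. None of these 3 passed (edgeR adjusted p = 0.501, 0.204 and 0.365).

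**Figure D2:**
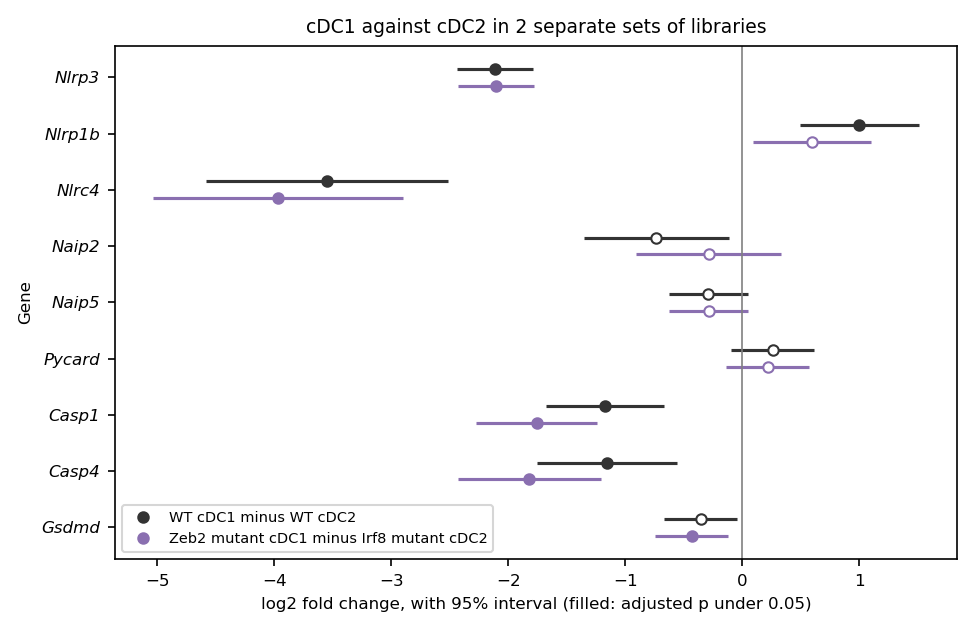
Log2 fold change of cDC1 over cDC2 (horizontal axis) for the 9 components, with 95% intervals, in WT libraries and in mutant libraries; filled points passed at an adjusted p under 0.05. Nlrp3, Nlrc4, Casp1 and Casp4 are filled and lower in cDC1 in both sets, Nlrp1b is filled in WT only (1.003, against 0.60) and Gsdmd in mutants only (-0.43, against -0.36).

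Added up, the 9 components came to 257 to 296 TMM-normalised CPM in the 4 cDC1 libraries and to 541 to 582 in the 4 cDC2 libraries, with no overlap. Most of that gap was Nlrp3, at 60.6 CPM in WT cDC1 and 261.9 in WT cDC2 on average. Nlrp1b and Pycard lay higher in cDC1. To set levels of different genes side by side, the deposited FPKM (read counts over library size and exon length) were used. That length counts every annotated exon base, so FPKM understates genes whose transcripts are mostly shorter. Pycard was given 3800 bases in a locus running from 127989708 to 127993867. Casp1 was given 3136, although its GENCODE M21 transcripts hold only 1348 distinct 150-base words. The order below is therefore that of FPKM and may differ for transcripts. In WT cDC1, Gsdmd led with 47.0 FPKM, followed by Nlrp3 (15.2) and then by Pycard (7.27), Naip5 (6.93) and Casp1 (6.81), whose ranges over the 2 libraries overlapped. Nlrp1b (3.03) came next, then Naip2 (1.88) and Casp4 (1.64), which overlapped, and Nlrc4 was last at 0.507. In WT cDC2, Nlrp3 led with 62.3 FPKM, Gsdmd followed with 56.7 and Casp1 with 14.6. Naip5 (8.00) stood above Pycard (5.75) and Nlrc4 (5.55), which overlapped, and Casp4 (3.49), Naip2 (2.93) and Nlrp1b (1.43) closed the order. Nlrp1b thus stood above Nlrc4 in WT cDC1 and below it in WT cDC2. In Zeb2 mutant cDC1 Gsdmd (45.9) and Nlrp3 (14.5) led again and Nlrc4 (0.333) was last, with no overlap between neighbours. In Irf8 mutant cDC2 Nlrp3 (58.2) and Gsdmd (57.8) overlapped at the top and Nlrp1b (1.66) was last.

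**Figure D3:**
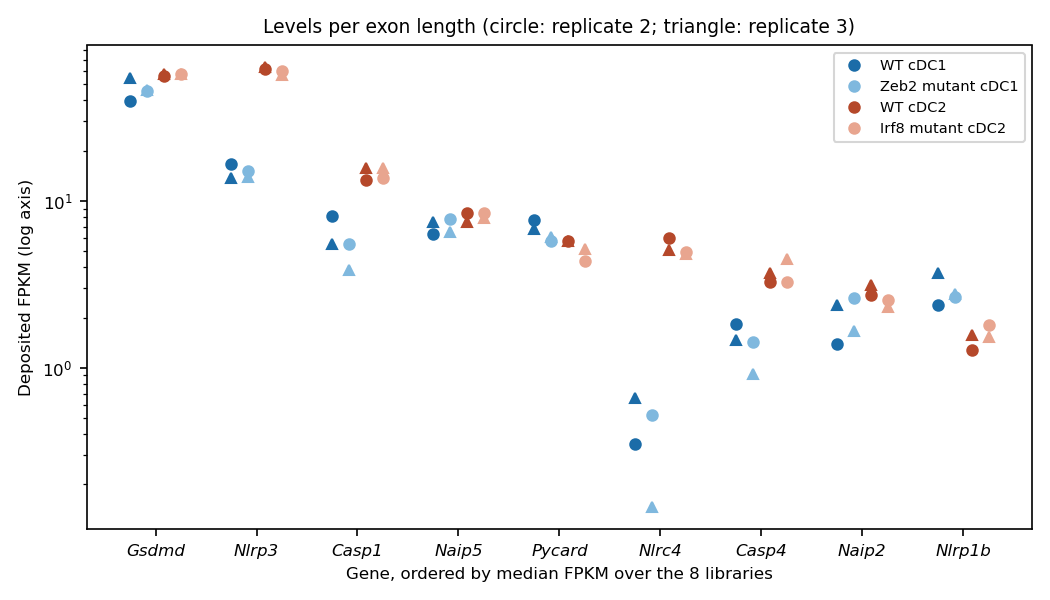
Deposited FPKM (log axis) of the 9 components in each library, with colours for the 4 groups, circles for replicate 2 and triangles for replicate 3. Gsdmd stays within 39.5 to 57.95 FPKM in every library, while Nlrc4 runs from 0.146 to 6.01 FPKM.

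The balance between components differed by subset as well. Within each library, the FPKM of Nlrp3 was 2.02 to 2.62 times that of its adaptor Pycard in cDC1 and 10.8 to 13.8 times in cDC2. Naip5 stood at 11.4 to 44.5 times Nlrc4 in cDC1 and at 1.42 to 1.71 times in cDC2. The ratio of Casp1 to Casp4 stayed between 3.51 and 4.43 in all 8 libraries. These ratios describe the libraries and were not tested. Their size depends on the exon lengths used, so only their differences between libraries can be read.

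Neither enhancer mutant differed from WT in any component by edgeR's quasi-likelihood test. Between Zeb2 mutant and WT cDC1, 0 of 9 components passed, against 0.0679% of all genes (0.0145% higher, 0.0533% lower, 14 genes). Casp1 alone of the 9 had an unadjusted p under 0.05, where 2176 of all 20631 genes tested did. It was at 16.4 and 11.7 CPM in the mutant and at 25.7 and 16.5 CPM in WT, with both mutant libraries lower by a narrow margin. Its log2 fold change was -0.59 (95% interval -1.10 to -0.08; edgeR adjusted p = 0.411). This comparison depends on 1 library: without replicate 3 of WT cDC1, Casp1 passed at -0.87 (edgeR adjusted p = 0.0379), while with DESeq2 and limma-voom 0 of 9 passed. The log2 fold changes of all genes in this comparison followed exon length with a Spearman's rho of 0.481 across 8399 genes, and its part in the result was not tested beyond the fit with the length trend removed, in which 0 of 9 passed. In the other comparisons the rho was -0.274 (WT subsets), -0.138 (mutant groups), 0.057 (Irf8 mutant against WT) and 0.354 (Zeb2 mutant effect minus Irf8 mutant effect).

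In Zeb2 mutant cDC1, Casp4 (5.04 and 3.30 CPM, WT 6.86 and 5.17) and Pycard (20.7 and 22.4 CPM, WT 29.8 and 24.6) also lay below WT in both libraries, which with Casp1 makes 3 lower and 0 higher. Of all genes, 39% did not overlap, 19.8% lower and 19.2% higher, and 3 of 9 is near that share. The log2 fold changes were -0.53 (95% interval -1.13 to 0.07) for Casp4 and -0.34 (-0.69 to 0.02) for Pycard. The intervals for Nlrp3 (-0.42 to 0.21), Naip5 (-0.32 to 0.36) and Gsdmd (-0.38 to 0.25) are the narrowest of the 9. Those for Nlrp1b (-0.69 to 0.31) and Naip2 (-0.46 to 0.78) are wider, and that for Nlrc4 (-1.65 to 0.40), from 37 to 177 counts, is the widest of the 9.

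Between Irf8 mutant and WT cDC2, 0 of 9 components passed, as did 0% of all genes. An unadjusted p under 0.05 was met by 0 of 9, against 1313 of all 20631 genes tested. DESeq2 and limma-voom also called 0 of 9. Nlrp3 (254 and 231 CPM, WT 263 and 261), Nlrc4 (24.75 and 23.4, WT 30.4 and 25.0), Naip2 (12.9 and 11.3, WT 14.0 and 15.5) and Pycard (17.3 and 19.8, WT 22.9 and 22.4) were lower in both mutant libraries. That is 4 lower and 0 higher, where 39.3% of all genes did not overlap, 19.7% lower and 19.6% higher. Their log2 fold changes were small: -0.11 (95% interval -0.42 to 0.20), -0.20 (-1.12 to 0.71), -0.28 (-0.90 to 0.33) and -0.29 (-0.65 to 0.07). Casp1 was level, at 45.2 and 49.6 CPM against 44.3 and 50.7 (log2 fold change -0.002, 95% interval -0.50 to 0.50).

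**Figure D4:**
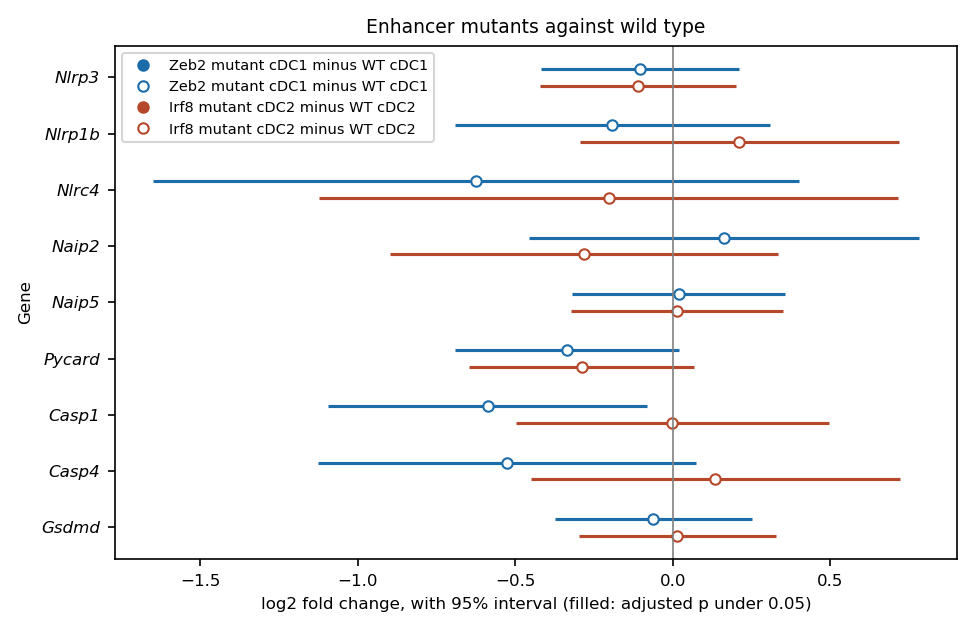
Log2 fold change of mutant over WT (horizontal axis) for the 9 components, with 95% intervals, for the Zeb2 mutant (cDC1) and for the Irf8 mutant (cDC2); no point is filled, since none passed at an adjusted p under 0.05. All intervals but that of Casp1 in the Zeb2 mutant (-1.10 to -0.08) include 0.

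The effects of the 2 mutants were also set against each other, although each was measured in another subset and the 2 share no library. In this difference of effects 0 of 9 components passed edgeR's quasi-likelihood test, against 0.0194% of all genes, and DESeq2 and limma-voom called 0 of 9. An unadjusted p under 0.05 was met by 0 of 9, against 1573 of all 20631 genes tested. The largest differences were those of Casp4 (-0.66, 95% interval -1.50 to 0.18) and Casp1 (-0.59, -1.30 to 0.12), both with the lower value in the Zeb2 mutant. Neutrophil markers moved with genotype: the summed level of 11 such genes was 1.54 to 52.7 CPM in WT libraries and 77.8 to 138.9 in mutant libraries. Of the 10 tested, 8 were higher in both Zeb2 mutant libraries, against 19.2% of all genes, and 0 lower. In both Irf8 mutant libraries 7 were higher, against 19.6% of all genes, and 1 was lower. Of these differences, 0 were called. Mmp9 averaged 26.6 CPM in WT cDC2 and 15.6 in Irf8 mutant cDC2. Ly6g was at or below 0.135 CPM on average in each group. Summed B cell markers were at 361 and 292 CPM in Irf8 mutant cDC2 and at 473 and 556 CPM in WT cDC2, with 0 of 6 called. Ighm made up most of that sum, at 303 CPM in the mutant and 485 in WT on average. Of the 6 genes, 3 had a positive and 3 a negative log2 fold change. The part of these markers in the mutant comparisons was not tested.

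Genes around the inflammasome came from 5 lists chosen with earlier results of these data known. Of all genes tested, 15.9% were lower and 14.2% higher in WT cDC1 than in WT cDC2. Between the mutant groups, 15% were lower and 12.8% higher in cDC1. In the list of other sensors, 5 of 7 tested genes were lower in WT cDC1 and 0 higher. Mefv, which encodes the sensor pyrin, was at 83.8 and 72.0 CPM in WT cDC1 and at 201 and 181.5 in WT cDC2 (log2 fold change -1.30 ± 0.179, edgeR adjusted p = 0.00035). Aim2, a sensor of cytosolic DNA, was at 61.3 and 62.2 CPM against 93.5 and 114.7 CPM (log2 fold change -0.75 ± 0.146, edgeR adjusted p = 0.00299). Nlrp10 was at 0.0691 and 1.18 CPM against 29.3 and 25.9 CPM (edgeR adjusted p = 0.013), and Nlrp1a, a relative of Nlrp1b, at 9.76 and 15.1 CPM against 19.99 and 23.1 CPM (edgeR adjusted p = 0.0395). Nlrp1a therefore stood lower in cDC1 where Nlrp1b stood higher. The call of Nlrp1a was lost in 7 of 16 alternatives (highest adjusted p 0.215). The fifth was Nlrp6, chosen after its values were seen, low at 0.112 CPM in WT cDC1 and 0.658 in WT cDC2 on average (edgeR adjusted p = 0.0442). The count of 5 fell to 3 without either WT cDC2 library or replicate 2 of WT cDC1, in a fit of the WT libraries alone, and with the length trend removed. In the mutant libraries, Nlrp1a, Aim2, Mefv and Nlrp10 were lower again, and Naip6 was higher (log2 fold change 0.48, edgeR adjusted p = 0.0381). Naip6 lost its call without any 1 library other than those of WT cDC1. Without replicate 2 or 3 of WT cDC2, replicate 3 of either mutant group, or with replicate as a block, 2 were lower.

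Among other caspases, gasdermins and proteins of membrane rupture, 8 of 14 genes were below the filter on low counts. Ninj1, which ruptures the plasma membrane after pore formation, was at 24.75 and 17.5 CPM in WT cDC1 and at 105 and 80.9 in WT cDC2 (log2 fold change -2.14 ± 0.204, edgeR adjusted p = 2.58e-05). Both cDC2 libraries were above 3 times the higher cDC1 library. Casp8, which can cleave gasdermin D and start apoptosis, differed little, at 67.25 and 54.3 CPM against 80.01 and 82.8 CPM. Its call (log2 fold change -0.42, edgeR adjusted p = 0.04) was lost in 10 of 16 alternatives. In the mutant libraries, Ninj1 (-2.64) was lower and Gsdme (0.85), another gasdermin, was higher on the log2 scale (edgeR adjusted p = 6.87e-06 and 0.00453).

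Among cofactors and regulators, 11 of 26 were lower in WT cDC1 and 4 higher, against 15.9% and 14.2% of all genes. The 4 higher are near the share over all genes. Tmem176b and Tmem176a, ion channel genes linked to restraint of Nlrp3, were at 37.0 and 27.5 CPM against 659 and 548 CPM and at 26.7 and 17.6 CPM against 310.2 and 283 CPM. Their exons overlap by 81 bases on opposite strands. These were the widest gaps in the list, with log2 fold changes of -4.23 ± 0.183 and -3.74 ± 0.197 (edgeR adjusted p = 1.16e-07 and 4.16e-07). Syk, a kinase downstream of several surface receptors, was at 122 and 141 CPM against 703 and 641 CPM (log2 fold change -2.35 ± 0.154), and the channel gene Panx1 at 13.6 and 11.6 CPM against 50.7 and 49.97 CPM (-2.00 ± 0.153). The 4 higher ones, named after their values were seen, were Serpinb1a (log2 fold change 1.21), Trim30a (1.14), P2rx7 (0.92), which encodes the ATP-gated channel that triggers Nlrp3, and Brcc3 (0.64). Without replicate 3 of WT cDC2 the count of lower genes was 6. In the mutant libraries it was 7 of 26, with 4 higher, against 15% and 12.8% of all genes.

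Of the cytokines of the pathway and their receptors, 3 of 11 tested genes were lower in WT cDC1 and 0 higher. The shares over all genes were 15.9% and 14.2%. Il1rn, the interleukin-1 receptor antagonist, was at 1.97 and 0.821 CPM in WT cDC1 and at 54.8 and 54.5 in WT cDC2 (log2 fold change -5.29 ± 0.345, edgeR adjusted p = 1.74e-06). Il1r2, the decoy receptor, was at 55.02 and 22 CPM against 904.5 and 841 CPM (log2 fold change -4.50 ± 0.447, edgeR adjusted p = 0.000153). The third, Il1r1, averaged 0.103 and 1.09 CPM (edgeR adjusted p = 0.0495). It and the substrates of caspase-1 were looked at after their values were seen. Il1b was at 1992 and 1020 CPM in WT cDC1 and at 2471 and 2192 in WT cDC2 (log2 fold change -0.63, edgeR adjusted p = 0.0974), and Il18 at 24.2 and 17.4 CPM against 14.1 and 16.3 (0.45, edgeR adjusted p = 0.117). In the mutant libraries, Il1rn, Il1r2, Il18bp and Il1b (log2 fold change -0.93, edgeR adjusted p = 0.0228) were lower and Il1rap was higher, the latter not without either Zeb2 mutant library or replicate 3 of Irf8 mutant cDC2.

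Of the guanylate-binding proteins and partners, which coat bacteria and help expose lipopolysaccharide to caspase-11, 6 of 11 were lower in WT cDC1 and 0 higher. Over all genes, 15.9% were lower and 14.2% higher. Gbp8 was at 24.1 and 19.8 CPM against 80.9 and 72.5 CPM (log2 fold change -1.81 ± 0.195, edgeR adjusted p = 6.1e-05). Gbp7 (3.27 and 1.88 CPM against 10.95 and 16.0) and Gbp3 (3.77 and 5.15 against 13.7 and 17.7) were lower as well (edgeR adjusted p = 0.000357 and 0.0023). Gbp2 (11.7 and 9.07 against 22.7 and 28.5, edgeR adjusted p = 0.0104) lost its call without replicate 3 of either WT group (highest adjusted p 0.0789). In the mutant libraries 6 of 11 were lower and 1 higher, against 15% and 12.8% of all genes. The higher one was Gbp6, which shares 59.1% of its 150-base words with other genes and whose count is therefore uncertain. Monocyte and macrophage markers mostly moved the same way, with 10 of 14 lower and 2 higher in WT cDC1. Their summed level was 742 to 1310 CPM in cDC1 libraries and 1352 to 1866 in cDC2 libraries. Csf1r averaged 14.9 CPM in WT cDC1 and 618 in WT cDC2, and Adgre1 3.54 and 216. The 3 with a positive log2 fold change were Ly6c2 (9.03 and 3.65 CPM), Ccr2 (72.8 and 41.7) and Lyz2 (840 and 664). Plasmacytoid dendritic cell markers were split: of 5 tested, 2 were called higher and 2 lower in WT cDC1. Their sum was lower in cDC1 libraries (109 to 118 CPM, against 125 to 155). Tcf4 averaged 27.8 CPM in WT cDC1 and 101 in WT cDC2, while Ccr9 went the other way, at 44.3 and 7.79 CPM. Summed NK cell markers were higher in cDC1 libraries (11.45 to 22.1 CPM, against 5.22 to 10.4). The part of these markers in the results was not tested.

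In none of the 5 lists did edgeR's main fit call a gene between mutant and WT, or in the difference of effects. Alternatives that left out no single library called up to 1 cofactor gene higher and 1 lower in Irf8 mutant cDC2. They also called up to 1 gene higher and 1 lower of the guanylate-binding list in Zeb2 mutant cDC1. In the difference of effects, some cofactor and cytokine genes were called when a library was left out. In the order above, the lists held 7, 6, 26, 11 and 11 tested genes. Of these, 1, 3, 4, 1 and 3 had an unadjusted p under 0.05 between Zeb2 mutant and WT cDC1, against 2176 of all 20631 genes. Between Irf8 mutant and WT cDC2 the counts were 1, 0, 4, 0 and 0, against 1313 of all genes. In the difference of effects they were 1, 2, 5, 2 and 2, against 1573 of all genes. DESeq2 called 2 cofactor genes lower in Zeb2 mutant cDC1, as did edgeR without replicate 3 of WT cDC1, which also called 3 cytokine or receptor genes lower and Ninj1 (14.5 and 15.0 CPM, WT 24.75 and 17.5; adjusted p = 0.049, against 0.411 with all libraries). Tmem176b came nearest, at 15.1 and 16.8 CPM in Zeb2 mutant cDC1 and 37.0 and 27.5 in WT cDC1, with both mutant libraries lower (log2 fold change -1.02, edgeR adjusted p = 0.0677). Without replicate 3 of WT cDC1 it passed (edgeR adjusted p = 0.00405).

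**Figure D5:**
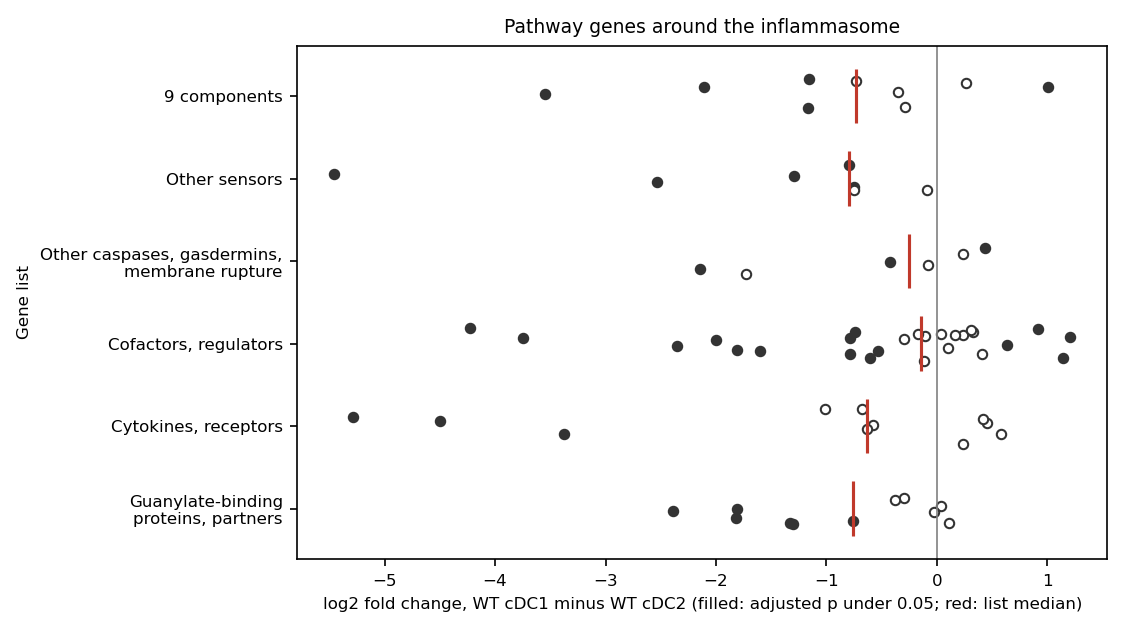
Log2 fold change of WT cDC1 over WT cDC2 (horizontal axis) for the 9 components and the tested genes of the 5 lists around them; each point is a gene, filled points passed at an adjusted p under 0.05, and red lines are list medians. The medians run from -0.80 (other sensors) to -0.15 (cofactors and regulators), against 0.03 over all tested genes.

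The genes most like Nlrp3 over the 8 libraries, by Pearson's correlation of log2 CPM, were Csk (r = 0.9993), Cybb (0.9988) and Ptk2b (0.9988). The 8096 genes compared had at least 10 CPM on average. Csk averaged 101 CPM in WT cDC1 and 211 in WT cDC2, Ptk2b 86.2 and 247, and Cybb 5.22 and 623. Those most like Gsdmd were Dhx57 (0.9832), Mcm9 (0.982) and Vps52 (0.9748). The 8 libraries fall into the 2 subsets, so a likeness over them takes in the subset difference, and no test is given.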

How the data were processed

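Per the labels' protocols, dendritic cells were sorted from spleen, RNA was amplified with a SMARTer Ultra Low kit, and paired reads of 150 bases were sequenced on a NovaSeq X Plus. The authors deposited 1 table per library with whole-number counts per gene. Per the submitters' processing notes, bcl2fastq, STAR, Subread featureCounts and Salmon were used with GRCm38 and mm10; the sources used here do not give their roles, the strand setting, sort gates, animals per library or the handling of shared reads. The deposited CPM values equal each count over the library total, and the deposited FPKM values equal CPM over exon length, as recomputed from the counts per the file headers. The deposited FPKM served only to compare levels between genes, and the deposited TPM was not used.

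Counts were fitted with edgeR 4.0.16 (R 4.3.3): filterByExpr, TMM scaling, 1 coefficient per group over all 8 libraries (4 residual degrees of freedom), the robust quasi-likelihood test and Benjamini-Hochberg adjustment over 20631 genes, with a threshold of 0.05. CPM in the text are TMM-normalised, on the linear scale, from these counts. Library totals ran from 49380686 to 58611821 counts. With 2 libraries per group, the number of libraries limits the precision. The reads carry no molecular identifiers. Alternatives were DESeq2 1.42.0, limma-voom 3.58.1, RLE size factors, 2 other filters, fits of the compared groups only, a replicate block, removal of the exon-length trend and leaving out each library. A crossed block was added after seeing the data.

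Groups came from the labels. Symbols were matched for 55141 of 55487 gene IDs. The members and the 5 pathway and 8 marker lists were chosen with earlier results of these data known. The text names all members, up to 4 called genes per list by size of change with at least 5 CPM in the higher group, list genes called in a mutant, Irf8, Zeb2, and the 3 genes most like Nlrp3 and Gsdmd. No protein sequences were used here. A few results of the caspase and gasdermin list are not reported here.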

Additional observations from a re-analysis of the deposited data

How the results depend on the processing

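Of 711 values of the 9 components under alternatives, 650 kept their direction and their side of the threshold, 10 lost a call, 10 gained one and 41 changed sign; no value that changed sign was called. The number of components passing ranged from 4 to 7 between the WT subsets and from 4 to 6 between the mutant groups, and was 0 throughout for Irf8 mutant against WT cDC2 and for the difference of effects. For Zeb2 mutant against WT cDC1 it was 0 to 1 when libraries were left out, 1 only without replicate 3 of WT cDC1 (Casp1). Where 1 library was left out, the remaining one is assumed to vary like the other groups. Beyond the calls given with the results, limma-voom (adjusted p = 0.0386) and no filter on low counts (0.0272) called Naip2 between the WT subsets, and removing the length trend called Gsdmd there (0.0454) and Nlrp1b between the mutant groups (0.0261); the cause was not tested.

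With the length trend removed, Zeb2 mutant against WT cDC1 gave log2 fold changes of -0.014 for Naip5 and 0.005 for Gsdmd, Irf8 mutant against WT cDC2 gave -0.004 for Gsdmd, and the difference of effects was -0.029 for Naip5 and 0.009 for Gsdmd. In Irf8 mutant against WT cDC2, Naip5 was 0 with DESeq2 and 0 with RLE size factors (to 3 decimals), and Casp1 was 0.009 with a filter of at least 1 CPM in 2 libraries and 0.004 in a fit of these groups alone. With that filter the difference of effects was -0.012 for Nlrp3 and -0.017 for Naip5. Leaving out 1 library at a time, Zeb2 mutant against WT cDC1 ran from -0.272 to 0.084 for Nlrp3, -0.436 to 0.102 for Nlrp1b, -1.793 to 0.002 for Nlrc4, -0.187 to 0.542 for Naip2, -0.105 to 0.131 for Naip5 and -0.238 to 0.139 for Gsdmd. Irf8 mutant against WT cDC2 ran from -0.126 to 0.131 for Naip5, -0.095 to 0.068 for Casp1, -0.077 to 0.32 for Casp4 and -0.017 to 0.045 for Gsdmd. The difference of effects ran from -0.161 to 0.195 for Nlrp3, -1.589 to 0.207 for Nlrc4, -0.117 to 0.154 for Naip5, -0.176 to 0.098 for Pycard and -0.252 to 0.124 for Gsdmd. The cause was not tested.

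With replicate number as a block, 5, 0, 0, 4 and 0 components passed (WT subsets, Zeb2 mutant, Irf8 mutant, mutant groups, difference of effects); the call lost was Gsdmd between the mutant groups (adjusted p = 0.0616), and Naip5 in the difference of effects was -0.003. Replicate differences of WT cDC1 and WT cDC2 correlated at -0.176 over 8399 genes. Those of WT cDC1 and Zeb2 mutant cDC1 correlated at -0.183, and those of WT cDC2 and Irf8 mutant cDC2 at 0.069. Each rests on the difference between 2 libraries per group, so these values cannot decide whether libraries with the same number are paired. No label says what the replicate number stands for. A crossed pairing gave 6 components and 2778 higher and 3230 lower genes between the WT subsets, and 0 components for the Zeb2 mutant. Over all genes, Zeb2 mutant against WT cDC1 had 3 higher and 11 lower calls, 151 and 137 with DESeq2, 258 and 219 with no filter, and 666 and 369 without replicate 3 of WT cDC1. Irf8 mutant against WT cDC2 had 0 and 0, 75 and 74 with DESeq2, and 125 and 74 with no filter. The difference of effects had 0 and 4, 81 and 87 with DESeq2, 139 and 167 with no filter, and 364 and 166 without replicate 3 of WT cDC1. With 2 libraries per group and as few as 37 counts, intervals for Nlrc4 in the mutants are wide.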
